A study of Mus musculus with 9 samples.

Results

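The comparison asks which genes differ in level between iNKT1 cells of the liver and iNKT1 cells of the spleen. It covers 6 of the 9 RNA-seq libraries of the study, 3 from liver and 3 from spleen, and all 14004 genes of the deposited table. A gene was tested where 3 or more of the 6 libraries reached a value of 1, which left 12890 genes in the test and 1114 outside it. Every library came from untreated C57BL/6 mice of the genotype Tbx21CreTg;Rosa26-LSL-YFP+/+, in which a Cre recombinase under Tbx21 control switches on a YFP reporter. The transgene and the reporter are therefore carried by the cells of both tissues, and neither tissue has a group without them. Replicates are called independent in the design text, but whether each library came from its own animals, and the age of the mice, are not given in the sources used here. The p-values below thus measure only the spread between these libraries, part of which may be technical. By Xist and Y-linked reads, replicates 1 and 2 of each tissue differed in sex, so these came from different animals.

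Invariant natural killer T (iNKT) cells recognise lipids on the antigen-presenting molecule CD1d through an αβ receptor with an invariant α chain. Their iNKT1 subset depends on the transcription factor T-bet, the product of Tbx21, and on IL-15, and it combines rapid IFN-γ secretion with the granule-borne killing proteins and lectin-like receptors of natural killer cells. In the liver these cells are abundant and patrol the sinusoids, held there by the chemokine receptor CXCR6 among others, while in the spleen they are a small fraction of the lymphocytes.

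The label was checked against 12 genes of the iNKT1 programme, and all 12 were expressed in each of the 6 libraries. Il2rb, the IL-15 receptor β chain, was the most abundant of them with values of 34858 to 71230, Tbx21 lay between 2321 and 3600, Zbtb16 between 1216 and 2621, and Klrb1c, which encodes NK1.1, between 4101 and 6758. The summed value of the 12 genes was 181469 to 190285 in liver and 113903 to 135081 in spleen, without overlap. Il2rb and Cd3e contributed most to this sum. Of the 12, 8 had positive fold changes, 6 lay wholly higher in liver (50%) and 0 in spleen, with a median log2 fold change of 0.35, and none passed the test described below. Over all genes tested, these shares were 6.04% and 6.99%. The 4 with negative fold changes, all with overlap, were Zbtb16 (-0.66), Cd3d (-0.45), Tbx21 (-0.29) and Klrb1c (-0.23). The recovered depth of liver was 31590409 reads for replicate 1, 27697066 for replicate 2 and 3890956 for replicate 3, and each spleen library held 32532705 to 39637929. In liver replicate 3 a single read is thus worth about 6.02 units of normalised count, and a gene without a read was listed at a median of 0.763. Replicate 2 of each tissue was female by Xist (84543 in liver, 107736 in spleen) and the other 4 libraries were male.

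Both libraries numbered 1 stood apart. Liver replicate 1 lay alone on the first principal component, with 31.6% of the variance, and spleen replicate 1 alone on the second, with 27.1%. Both were high in Igkc, the κ constant chain, at 49535 in liver replicate 1 and 18137 in spleen replicate 1. The other 4 libraries held it at 17.8 to 80.7. Jchain was at 11333 in liver replicate 1 and 4634 in spleen replicate 1, against 0.887 to 25.7 elsewhere. Ighm, another immunoglobulin gene, was at 5257 to 9283 over all 6 libraries. Most other B cell genes were high in spleen replicate 1 alone, and in liver replicate 1 Cd22 was at 12.2 and H2-Eb1 at 0.846. Spleen replicate 1 also held macrophage genes, with Csf1r at 1297 and Hmox1 at 1276 beside Cd22 at 1963, and liver replicate 1 held Cd8a at 1116 and Eomes at 395. Without both libraries the same number of genes, 6, passed the test, 5 of them shared with the fit on all 6 libraries. The gene not shared was Alb, which had too few libraries with a value to be tested there. In its place mt-Nd2 passed (limma-trend adjusted p 0.0061), a gene that missed the threshold on all 6 libraries.

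Of the 12890 genes tested, 6 passed an adjusted p of 0.05 (limma-trend with Benjamini-Hochberg adjustment, 0.0465% of the genes tested). These were 3 genes higher in liver (0.0233%) and 3 genes lower in liver (0.0233%). Gzmb, Fgl2 and Alb rose in liver, and Malat1, Ikzf2 and ENSMUSG00000093077, an identifier to which no symbol was matched, fell. The 3 liver values of a gene all lay above its 3 spleen values in 778 genes (6.04%) and all below them in 901 genes (6.99%). Of the genes tested, 39 reached a value of 1 in the liver libraries alone and 30 in the spleen libraries alone. Their lack of overlap was thus set by the filter. Without adjustment, 890 genes had a p under 0.05, against the 644.5 that a test with no true difference would give. All log2 fold changes are liver minus spleen and were computed from log2(value + 1), so the changes of low genes are understated. Their median over all tested genes was -0.02 and their median standard error was 0.78, or 0.34 for the 3732 genes with a mean of at least 1000, so that changes in weakly expressed genes were rarely detectable. In whole-population RNA, fewer cells with a transcript and less transcript per cell cannot be told apart.

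**Figure D1:**
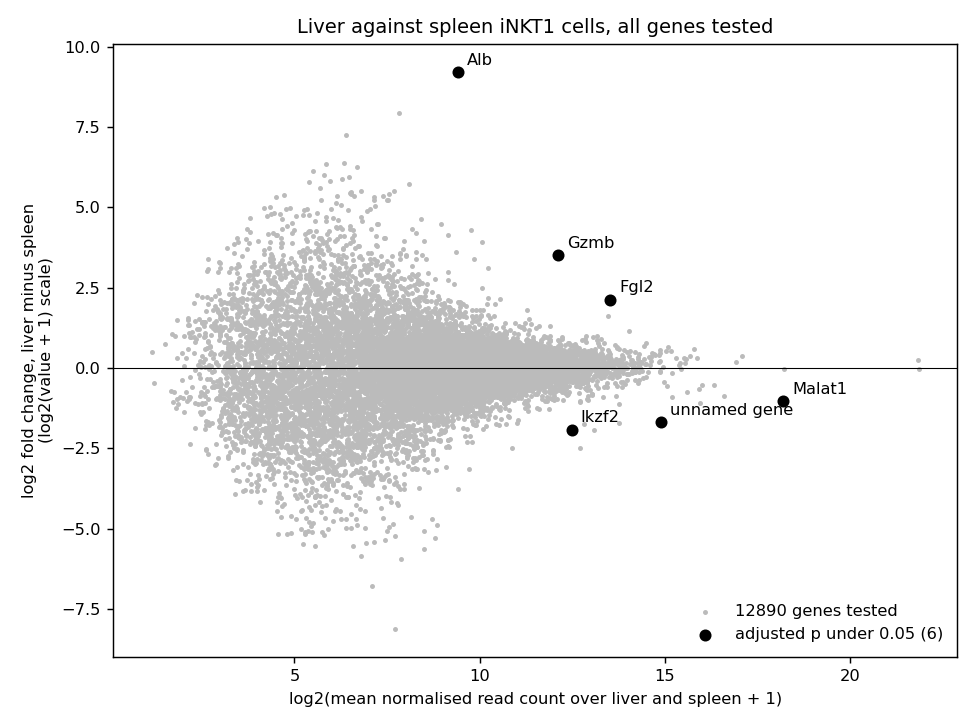
Log2 fold change of each tested gene (vertical, liver minus spleen, on the log2(value + 1) scale) against its mean normalised read count over the 6 libraries (horizontal, log2). Each grey point is 1 of 12890 genes and the 6 black points are the genes with an adjusted p under 0.05: Gzmb, Fgl2 and Alb lie above 0 and Malat1, Ikzf2 and the unnamed gene below.

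Gzmb and Fgl2 were the pair with the smallest p-values. Granzyme B, the Gzmb product, is the serine protease that cytotoxic lymphocytes deliver into target cells to trigger apoptosis. FGL2 is a fibrinogen-like protein, with a membrane form that cleaves prothrombin and a secreted form known for dampening immune responses. The promoter stretches of both genes are shown because they rose together. Each is the 250 bases before the RefSeq start on GRCm38.p6, read 5′ to 3′ along the gene, chr14:56262335-56262584 on the minus strand for Gzmb and chr5:21372423-21372672 on the plus strand for Fgl2, and capitals mark the motif matches named below.
Gzmb: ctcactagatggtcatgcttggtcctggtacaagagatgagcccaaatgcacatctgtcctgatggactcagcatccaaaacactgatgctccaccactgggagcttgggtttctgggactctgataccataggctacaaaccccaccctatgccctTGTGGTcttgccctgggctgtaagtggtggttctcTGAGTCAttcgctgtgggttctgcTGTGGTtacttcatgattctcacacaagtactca
Fgl2: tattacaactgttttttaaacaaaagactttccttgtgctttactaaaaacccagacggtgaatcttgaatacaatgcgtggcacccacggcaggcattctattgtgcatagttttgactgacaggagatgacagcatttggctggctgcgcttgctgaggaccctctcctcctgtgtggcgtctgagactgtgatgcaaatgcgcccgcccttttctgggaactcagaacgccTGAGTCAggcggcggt
Matches to 5 core motifs were searched on both strands: T-box GGTGTG, RUNX TGTGGT, AP-1 TGANTCA, NFAT GGAAAA and ETS CGGAAG. The Gzmb stretch held RUNX letters beginning 93 and 34 bases before the start and AP-1 letters beginning 58 bases before it. The Fgl2 stretch held AP-1 letters beginning 16 bases before the start. They lie before the RefSeq start but inside the GENCODE span of Fgl2 given below, which begins at 21372642. The GENCODE span of Gzmb, up to 56262260, does not reach into the Gzmb stretch. Among 32817 promoter stretches of this length, 14.04% held the RUNX letters and 6.75% the AP-1 letters. The T-box, NFAT and ETS letters, held by 16.3%, 20.4% and 13.6% of stretches, were not in either window. A match of letters is a description and not evidence of binding.

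Gzmb (ENSMUSG00000015437, chromosome 14, 56258838 to 56262260, minus strand) was at 7927, 5937 and 10279 in liver replicates 1, 2 and 3 and at 477, 487 and 1395 in spleen replicates 1, 2 and 3. The lowest liver library was above the highest spleen library. Gzmb averaged 8048 ± 2173 in liver and 786 ± 527 in spleen (SD, n = 3 each). This is 10.2-fold higher, or 3.51 on the log2 scale with a standard error of 0.41 (adjusted p 0.00261 by limma-trend). Fgl2 (ENSMUSG00000039899, chromosome 5, 21372642 to 21378374, plus strand) was at 19554, 17124 and 20459 in liver and at 3168, 4202 and 6137 in spleen. All 3 liver libraries lay far above the spleen libraries. Fgl2 averaged 19046 ± 1724 against 4502 ± 1507, 4.23-fold higher, or 2.13 on the log2 scale with a standard error of 0.24 (adjusted p 0.00261 by limma-trend). Both genes passed in each of the 6 fits that left out 1 library. Without both libraries numbered 1 the log2 fold changes were 3.24 for Gzmb and 1.88 for Fgl2 (limma-trend adjusted p 0.00615 and 0.00455). In edgeR's quasi-likelihood test on the recovered reads without liver replicate 3, the shallowest library, neither gene passed (adjusted p 0.242 for Gzmb and 0.237 for Fgl2).

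Alb, which encodes serum albumin, the main secreted protein of hepatocytes, was the third gene to rise. Alb (chromosome 5, 90460897 to 90476602, plus strand) was at 1288, 1588 and 1172 in liver and at 10.4, 0 and 0 in spleen, where the only reads were 14 in replicate 1. Liver exceeded spleen by 9.22 on the log2 scale, with a standard error of 1.43 (adjusted p 0.0323 by limma-trend). The call was kept in 14 of 25 alternatives, over which the adjusted p ranged from 0.00107 to 0.712, and was lost without liver replicate 1, 2 or 3 (0.180, 0.252 and 0.234). Other hepatocyte genes pointed the same way. Of 24 hepatocyte markers 15 were in the table and 10 were tested, all 10 with a positive fold change, and 7 had every liver value above every spleen value. The 5 of them with no read in spleen entered the test through their liver values alone, so these counts only describe the list. Fga, a fibrinogen chain, was at 240, 71.3 and 30.5 in liver and had no read in any spleen library, which makes it at least 56.0-fold higher against a floor of 3 reads per library, or at least 25.1-fold without liver replicate 1. Apob and Ahsg, which encode apolipoprotein B and fetuin-A, averaged 176 ± 225 and 34.3 ± 20.6 in liver and 3.46 ± 5.99 and 0 in spleen (SD, n = 3). The summed value of the hepatocyte markers was 1841 to 2164 in liver and 0.525 to 225 in spleen. Their part in the other differences between the tissues was not tested.

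**Figure D2:**
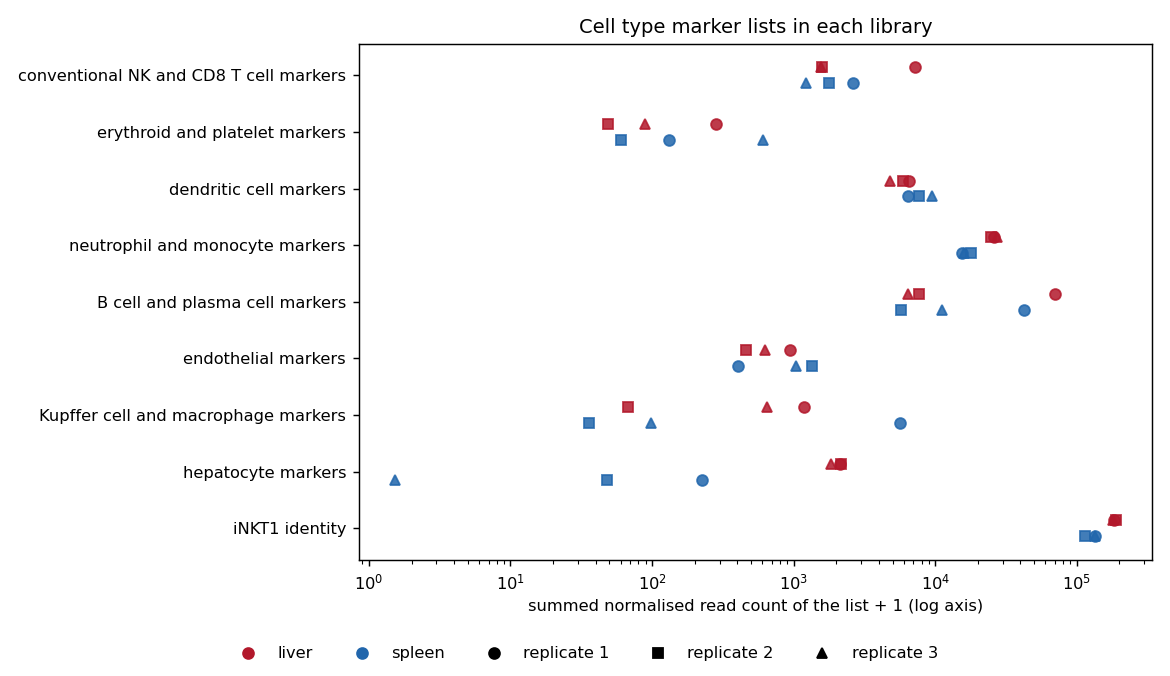
Summed normalised read count (+ 1, log axis) of the iNKT1 list and of 8 marker lists of other cell types in each library, liver in red and spleen in blue, with a circle, a square and a triangle for replicates 1, 2 and 3. Hepatocyte markers lie at 1841 to 2164 in the 3 liver libraries and at 0.525 to 225 in the spleen libraries, and the circles stand apart for B cell and plasma cell markers.

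The other marker lists did not separate the tissues in this way. B cell and plasma cell markers (15 of 19 in the table) summed to 69716 in liver replicate 1 and 42258 in spleen replicate 1, and to 5741 to 11247 in the other 4 libraries. Ighm alone was at 5257 to 9283 in those 4 libraries. Kupffer cell and macrophage markers (8 of 17) summed to 5637 in spleen replicate 1 and to 34.9 to 1190 elsewhere, and the Kupffer cell genes Clec4f, Vsig4 and Timd4 were not analysed here. Conventional NK and CD8 T cell markers (10 of 11) summed to 7207 in liver replicate 1 and to 1224 to 2636 in the other libraries. Endothelial (3 of 13), erythroid and platelet (8 of 12) and dendritic cell (6 of 12) markers overlapped between the tissues, at 404 to 1336, 47.6 to 606 and 4771 to 9564. Neutrophil and monocyte markers summed to 24604 to 27421 in liver and 15433 to 17772 in spleen, but only 4 of 16 were in the table, and 3 of those, Ccr2, Ly6c2 and Mmp9, were expressed in all 6 libraries.

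Malat1, a long non-coding RNA retained in the nucleus, was the most abundant gene to fall. Malat1 (ENSMUSG00000092341, chromosome 19, 5795690 to 5802672, minus strand) was at 226267, 180276 and 186482 in liver and at 407014, 392167 and 396950 in spleen. The spleen libraries lay within a narrow band, above every liver library, and liver was 2.02-fold lower by the means. Its means were 197675 ± 24955 and 398711 ± 7579 (SD, n = 3), a difference of -1.02 on the log2 scale with a standard error of 0.13 (adjusted p 0.0043 by limma-trend). Without liver replicate 2 it no longer passed (limma-trend adjusted p 0.0561), and without both libraries numbered 1 the log2 fold change was -1.11 (limma-trend adjusted p 0.00455).

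Among other nuclear and short non-coding RNAs, negative fold changes outnumbered positive ones, a description added after the values had been seen. Of 209 small nuclear, nucleolar and Cajal body RNAs tested, 25 had every spleen value above every liver value (12.0%) and 5 the reverse (2.39%). Over all genes these shares were 6.99% and 6.04%, and the median log2 fold change of the 209 was -0.44. Of 41 miRNA hairpin loci, 9 lay wholly above in spleen (21.95%) and 0 in liver, with a median of -0.89. Of 28 further small RNAs (misc_RNA), with a median of -0.95, 2 lay wholly above in spleen (7.14%) and 1 in liver (3.57%), close to the shares over all genes. None of the genes in these RNA classes passed the test. Rnu11, a U11 RNA of the minor spliceosome, was at 18.2, 33.4 and 43.6 in liver and at 658, 885 and 875 in spleen. Rn7sk, the 7SK RNA that holds the elongation factor P-TEFb inactive, was at 890, 1693 and 4331 against 8362, 16934 and 8071 (limma-trend adjusted p 0.0849). Snord13, a nucleolar RNA, averaged 25.5 ± 21.7 in liver and 862 ± 392 in spleen. Values of such RNAs are uncertain where near-identical copies share their reads, and without a stated strand setting reads of a host gene cannot be told apart from theirs. Among the mitochondrially encoded genes, all 7 protein-coding genes tested had negative fold changes, with a median of -0.65, but mt-Co1 was at -0.045 and only mt-Nd2 and mt-Nd6 had no overlap between the tissues. mt-Nd2, a subunit of respiratory complex I, had the most negative fold change of them, at 9190, 4366 and 5882 in liver against 30731, 14825 and 18576 in spleen (log2 fold change -1.72, limma-trend adjusted p 0.054). Reads of mitochondrial genes as a whole made up 26.6% to 37.4% of these libraries, with overlap between the tissues. The unnamed ENSMUSG00000093077 was at 11989 to 17462 in liver and 30573 to 69001 in spleen (log2 fold change -1.69, limma-trend adjusted p 0.0274), and passed in 16 of 27 alternatives. It did not pass without replicate 1 or 2 of either tissue, 1 library at a time (limma-trend adjusted p 0.0722 to 0.163), and had -1.28 without both libraries numbered 1 (limma-trend adjusted p 0.0452).

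Ikzf2, the gene of the Ikaros family factor Helios, was the sixth gene past the threshold. Ikzf2 (ENSMUSG00000025997, chromosome 1, 69531214 to 69687245, minus strand) was at 3273, 2816 and 1376 in liver and at 7873, 10787 and 8055 in spleen. All liver libraries lay below all spleen libraries, with the lowest value in liver replicate 3, the shallowest library. Means were 2488 ± 990 and 8905 ± 1632 (SD, n = 3), or -1.92 on the log2 scale with a standard error of 0.31 (adjusted p 0.0486 by limma-trend). The call lay close to the threshold: it was kept in 12 of 27 alternatives and in 1 of the 6 fits without 1 library, over a range of adjusted p from 1.87e-05 to 0.601. It was kept without liver replicate 1 and lost without each of the other 5 libraries in turn (adjusted p 0.0952 to 0.299 by limma-trend). Without both libraries numbered 1 the log2 fold change was -2.24 (limma-trend adjusted p 0.0123).

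**Figure D3:**
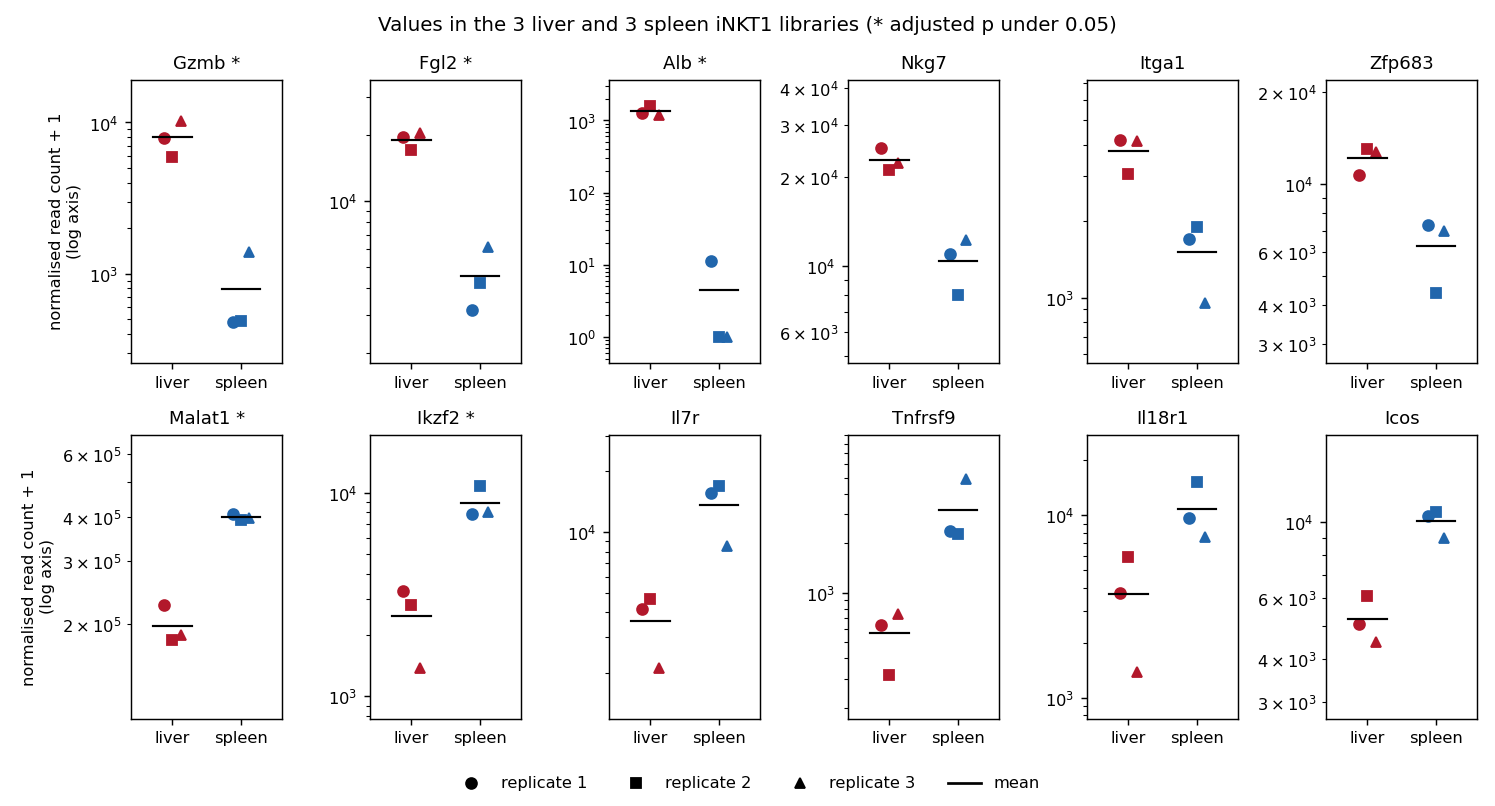
Normalised read count + 1 (log axis, a separate scale in each panel) of 12 genes in the 3 liver (red) and 3 spleen (blue) libraries, with the mean as a line; asterisks mark an adjusted p under 0.05. In every panel the red and blue points do not overlap, and Gzmb shows the widest gap after Alb. The lack of overlap follows in part from the choice of genes. Nkg7, Zfp683, Il7r, Tnfrsf9 and Icos were named by a rule that asked for it.

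Among the genes just outside the threshold were several lymphocyte proteins. Il7r, the IL-7 receptor α chain that supports survival of resting and memory T cells, was at 4131, 4674 and 2109 in liver and at 15547, 17003 and 8546 in spleen (log2 fold change -1.93, SE 0.32, limma-trend adjusted p 0.05001). Nkg7, a granule membrane protein needed for cytotoxic degranulation, was at 25136, 21154 and 22355 in liver and at 11002, 8003 and 12260 in spleen (log2 fold change 1.15, limma-trend adjusted p 0.054). Tnfrsf9, which encodes the costimulatory receptor 4-1BB, averaged 566 ± 224 in liver and 3189 ± 1493 in spleen (log2 fold change -2.49, limma-trend adjusted p 0.0752). In each of these genes the libraries of the tissues did not overlap. Il7r passed in 12 of 27 alternatives, Nkg7 in 9 and Tnfrsf9 in 6. Without both libraries numbered 1, Il7r kept a log2 fold change of -1.94 with an adjusted p of 0.111 (limma-trend).

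Further genes with all liver values above all spleen values, none of them past the test, were Itih5, Entpd1, Cd8a, Rac2, S100a6, Rgs18, Cd3e, Ttc7b and Zfp683. Entpd1 encodes CD39, an ectoenzyme that degrades extracellular ATP, and was at 3749, 3006 and 4590 in liver and at 971, 1225 and 1768 in spleen. Itih5, an inter-α-trypsin inhibitor heavy chain, averaged 3783 ± 412 and 1129 ± 362 (SD, n = 3, limma-trend adjusted p 0.0909), and Rac2, a small GTPase of haematopoietic cells, 28783 ± 2921 and 16719 ± 2064. Cd8a had no read in spleen and was at 1116, 146 and 85.8 in liver, at least 221-fold higher, or at least 57.0-fold without liver replicate 1. Rgs18, a regulator of G protein signalling, also had no read in spleen and averaged 165 ± 73.0 in liver, at least 81.4-fold higher. Cd8a and Rgs18 entered the test through their liver values alone, so their lack of overlap was set by the filter. S100a6, a calcium-binding protein, averaged 1923 ± 551 in liver and 457 ± 261 in spleen, and Ttc7b 2429 ± 1445 and 539 ± 305, with its highest value, 4095, in liver replicate 1. In the opposite direction lay Gdpd1, Lars2, Icos and Snrnp70. Gdpd1, a phosphodiesterase of lysophospholipids, had no read in any liver library and was at 791, 183 and 271 in spleen, at least 53.6-fold lower in liver, or at least 29.3-fold without spleen replicate 1. Gdpd1 entered the test through its spleen values alone, so its lack of overlap was also set by the filter. Icos, the inducible costimulator, was at 5059, 6104 and 4489 in liver and at 10434, 10685 and 8985 in spleen. Lars2, the mitochondrial leucyl-tRNA synthetase, averaged 38958 ± 5716 and 86078 ± 32007, and Snrnp70, a protein of the U1 spliceosomal particle, 2145 ± 383 and 5337 ± 1699.

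Among the granule genes only Gzmb passed the test. Of 15 tested genes for granule cargo and death ligands, 9 had positive and 6 negative fold changes. Wholly higher in liver were 3 (20%, beside 6.04% over all genes) and in spleen 1 (6.67%, beside 6.99%). The median was 0.01 beside -0.02 over all genes. The fits that left out 1 library gave medians of 0.06 to 0.22, and without both libraries numbered 1, 12 of 14 were positive with a median of 0.29. Prf1, the pore former perforin that acts with granzymes, was at 560, 535 and 497 in liver and at 775, 867 and 1032 in spleen (log2 fold change -0.74, limma-trend adjusted p 0.784). Its values lay below the spleen values in every liver library, opposite to Gzmb. Gzma averaged 1435 ± 1667 and 350 ± 287, with 3351 in liver replicate 1 and overlap between the tissues. Tnfsf10, the death ligand TRAIL, was at 10296, 6372 and 5747 against 4535, 4442 and 4191. Among 13 genes of granule exocytosis, 6 were positive and 7 negative with a median of -0.01, and Sytl2 (5913 ± 253 against 3990 ± 237) and Stxbp2 (1362 ± 302 against 1951 ± 199) were the 2 without overlap, 1 in each direction (7.69%, close to the shares over all genes). That median ran from -0.30 without liver replicate 2 to 0.27 without liver replicate 1, and was 0.22, with 8 of 13 positive, without both libraries numbered 1.

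Cytokine receptors were more often lower than higher in liver by sign. Of 22 tested, 8 had positive and 14 negative fold changes with a median of -0.14, and none passed the test. In spleen 6 lay wholly higher (27.3%, beside 6.99% over all genes) and in liver 3 (13.6%, beside 6.04%). Without spleen replicate 3 the median was 0.02. The IL-18 receptor chains were both among those higher in spleen. Il18r1 was at 3763, 5889 and 1382 in liver and at 9646, 15204 and 7580 in spleen (log2 fold change -1.73, limma-trend adjusted p 0.359), and Il18rap averaged 6091 ± 824 and 10621 ± 1507. The common γ chain Il2rg, Il17rb and Il27ra were on the same side. Il2rb lay on the other, at 61549, 71230 and 67940 against 51548, 34858 and 48835 (log2 fold change 0.59, limma-trend adjusted p 0.564), with Il12rb2 and Ifngr1. Cytokines and chemokines split evenly, 10 and 10 of 20 with a median of -0.04, and Fgl2, which the list holds for its secreted form, was the member that passed. Tgfb1 lay wholly higher in spleen, at 1746 ± 552 against 678 ± 311 in liver. Its log2 fold change was -1.45, and -0.75 without both libraries numbered 1. Ifng was at 1458, 1282 and 2271 in liver and at 3029, 2265 and 1328 in spleen, with overlap.

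Transcription factors of memory and of other iNKT lineages leaned towards the spleen. Of 16 tested, 12 had negative fold changes, and the median was -0.55, with -0.63 to -0.40 over the fits that left out 1 library. Wholly higher in spleen were 4 (25.0%, beside 6.99% over all genes) and in liver 0. None passed the test. Bach2, a repressor that restrains effector differentiation, was at 983, 1569 and 879 in liver and at 2089, 2482 and 2393 in spleen. Maf averaged 2946 ± 337 and 4973 ± 1095. Gata3 averaged 2873 ± 1048 and 4757 ± 912, and Zbtb16, which encodes the iNKT master factor PLZF, 1578 ± 615 and 2394 ± 205, both with overlap between the tissues. Tcf7 and Klf2, known from memory and recirculating T cells, overlapped between the tissues. Tcf7 averaged 1626 ± 386 and 1887 ± 1370, and Klf2 was at 75.7, 28.3 and 55.7 against 168, 63.2 and 68.3. The sign of the Tcf7 fold change, 0.04, turned under several alternatives. The 17 factors of type 1 and resident lymphocytes were divided, 8 positive and 9 negative, with a median of -0.08 (-0.28 without liver replicate 2) and Ikzf2 as the member that passed. Zfp683, the residency factor Hobit, was at 10663, 12952 and 12737 in liver and at 7308, 4375 and 7024 in spleen (log2 fold change 0.99, limma-trend adjusted p 0.346). Prdm1, which encodes its homologue and partner Blimp-1, averaged 2591 ± 1075 and 1354 ± 329, and Tbx21 averaged 2729 ± 679 and 3298 ± 490, both with overlap.

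Genes of tissue retention leaned towards the liver. Of 22 tested, 15 had positive and 7 negative fold changes, the median was 0.35 and none passed. Among the 22, 5 lay wholly higher in liver (22.7%, beside 6.04% over all genes) and 1 in spleen (4.5%, beside 6.99%). Without liver replicate 2 the median was 0.55. Itga1, the collagen-binding integrin α1 chain, was at 4178, 3052 and 4136 in liver and at 1694, 1898 and 952 in spleen (log2 fold change 1.37, limma-trend adjusted p 0.359). Cxcr6 was at 39291, 37694 and 40589 against 21071, 27996 and 34515, so that spleen replicate 3 came close to the liver libraries. Cd244a, a receptor of the SLAM family, averaged 152 ± 58.1 in liver and 2.93 ± 4.53 in spleen. Ccr9 was the member wholly higher in spleen, at 3665 ± 349 in liver and 6401 ± 2017 in spleen. Cd69 overlapped (1149 ± 425 against 943 ± 254), and Itgae, the αE chain, was at 382 in liver replicate 1 and at 13.1 to 58.1 in the other 5 libraries. Without both libraries numbered 1 the median of this list was 0.12.

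Of 19 genes of egress and recirculation tested, 9 were positive and 10 negative with a median of -0.11, and Il7r was the tested member without overlap. That median ran from -0.45 without spleen replicate 3 to 0.05 without liver replicate 3, and was -0.22 without both libraries numbered 1. S1pr1, the receptor for lymphocyte egress, averaged 310 ± 170 in liver and 472 ± 251 in spleen. Ccr7 was at 52.2, 12.0 and 0.795 in liver and 0.695, 0 and 0 in spleen and was too low to be tested. Eomes was not tested either, with 395, 0 and 7.19 in liver and at most 0.697 in spleen. Of 10 chemokine receptors tested, 6 were positive with a median of 0.31, which was 0.06 without spleen replicate 1 and 0.05 without both libraries numbered 1. Ccr2 averaged 17992 ± 1263 and 12142 ± 1668, and Cxcr3 7907 ± 668 and 6074 ± 164, both without overlap. Of 14 integrin chains, 9 were positive with a median of 0.25, which was -0.02 without spleen replicate 3. Mmp9, the gelatinase that degrades basement membrane, was at 3430, 3033 and 3585 in liver and at 592, 1633 and 2051 in spleen (log2 fold change 1.41, limma-trend adjusted p 0.571).

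Among 26 NK lectin-like and related receptors, 15 were positive. Of the 26, 4 lay wholly higher in liver (15.4%, beside 6.04% over all genes) and 1 in spleen (3.85%, beside 6.99%). The median was 0.15 and none passed. That median was 0.02 without spleen replicate 3 and 0.41 without liver replicate 2. Klre1, a lectin-like receptor of NK cells, was at 1494, 1281 and 1587 in liver and at 598, 685 and 436 in spleen, and Klrc3, of the NKG2 family, averaged 349 ± 126 and 78.8 ± 56.9. Klrb1c overlapped at 5095 ± 891 and 5925 ± 741. Members of the Klra and Klrc families have near-identical copies, so their values are uncertain. Of 22 costimulatory and inhibitory receptors, 14 were positive with a median of 0.16, which was 0.04 without liver replicate 2. Entpd1 and Tigit lay wholly higher in liver (9.09%, beside 6.04% over all genes) and Icos and Tnfrsf9 in spleen (9.09%, beside 6.99%). Tigit, an inhibitory receptor, was at 25.2, 48.0 and 449 in liver and at 1.45, 0 and 0 in spleen, so its mean rests mainly on liver replicate 3.

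Proximal T cell receptor signalling genes leaned towards the liver by small amounts. Of 29 tested, 20 had positive fold changes, and 8 lay wholly higher in liver (27.6%, beside 6.04% over all genes) and 0 in spleen. The median was 0.11, or 0.12 without both libraries numbered 1, and none passed the test. Cd3e, a chain of the CD3 complex, was at 41314, 46800 and 40033 in liver and at 26606, 25652 and 28431 in spleen (log2 fold change 0.67, SE 0.15, limma-trend adjusted p 0.304). Lck, the kinase that begins the signal, averaged 8259 ± 1710 and 5662 ± 60.3, and the adaptor Lcp2, known as SLP-76, 16850 ± 1115 and 12686 ± 1095. Cd3d had the opposite sign with overlap, at 4224 ± 1417 and 5568 ± 308.

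The immediate early genes, which respond within minutes to receptor signals or to handling of the cells, leaned towards the spleen. Of 29 tested, 20 had negative fold changes. Of the 29, 8 lay wholly higher in spleen (27.6%, beside 6.99% over all genes) and 1 in liver (3.45%, beside 6.04%). The median was -0.48, with -0.66 to -0.36 over the fits that left out 1 library. None passed the test. Nfkbia, the NF-κB inhibitor IκBα, was at 172, 601 and 286 in liver and at 1486, 1327 and 1209 in spleen (log2 fold change -2.11, limma-trend adjusted p 0.436). Nr4a1, a reporter of receptor signalling, averaged 144 ± 92.8 and 660 ± 330, and Nr4a3 was at 833, 913 and 897 against 6347, 1765 and 1717, with its highest value in spleen replicate 1. The log2 fold change of Nr4a3 was -1.61 and, without both libraries numbered 1, -0.94. Klf6 went the other way at 8049, 5767 and 6686 against 4245, 4451 and 3807. Fos and Fosb were too low to be tested. The effect of the time and manner of cell isolation in each tissue was not tested.

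Cell cycle genes had the largest positive median of the 17 lists, 0.74, with 32 of 40 tested genes positive. Of these, 4 lay wholly higher in liver (10%, beside 6.04% over all genes) and 0 in spleen, and none passed the test. Mki67, the proliferation marker Ki-67, was at 7015, 3813 and 7571 in liver and at 3278, 1522 and 5491 in spleen. Kif11, a spindle motor, was at 574, 731 and 1230 against 109, 272 and 313. The libraries within a tissue differed as much as the tissues: the summed value of the list was 26713, 22409 and 41899 in liver and 21524, 15182 and 31960 in spleen. The median was 0.24 without liver replicate 3, 0.19 without spleen replicate 2, 1.15 without liver replicate 1 and 1.23 without spleen replicate 3, and edgeR gave 0.43.

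Glycolysis genes were positive in 12 of 18, with 4 wholly higher in liver (22.2%, beside 6.04% over all genes) and 0 in spleen. Their median was 0.38, which was 0.19 without both libraries numbered 1 and 0.19 without liver replicate 3. None passed the test. Gapdh was at 7262, 9181 and 10325 in liver and at 4800, 3838 and 5908 in spleen (log2 fold change 0.89, limma-trend adjusted p 0.469). Hk2, a hexokinase, was low but detected in each liver library, at 20.6 to 60.4, and reached at most 0.628 in spleen. It entered the test through its liver values alone. Of 43 interferon response genes, 25 were positive with a median of 0.25, and none passed. In liver 6 lay wholly higher (13.95%, beside 6.04% over all genes) and in spleen 2 (4.65%, beside 6.99%). The values of Slfn1, Gbp7 and Usp18 were higher in every liver library than in any spleen library, with Gbp7, a guanylate-binding GTPase, at 10204 ± 937 and 7045 ± 1058. The median of this list was -0.01 without spleen replicate 1 and 0.44 without liver replicate 1.

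**Figure D4:**
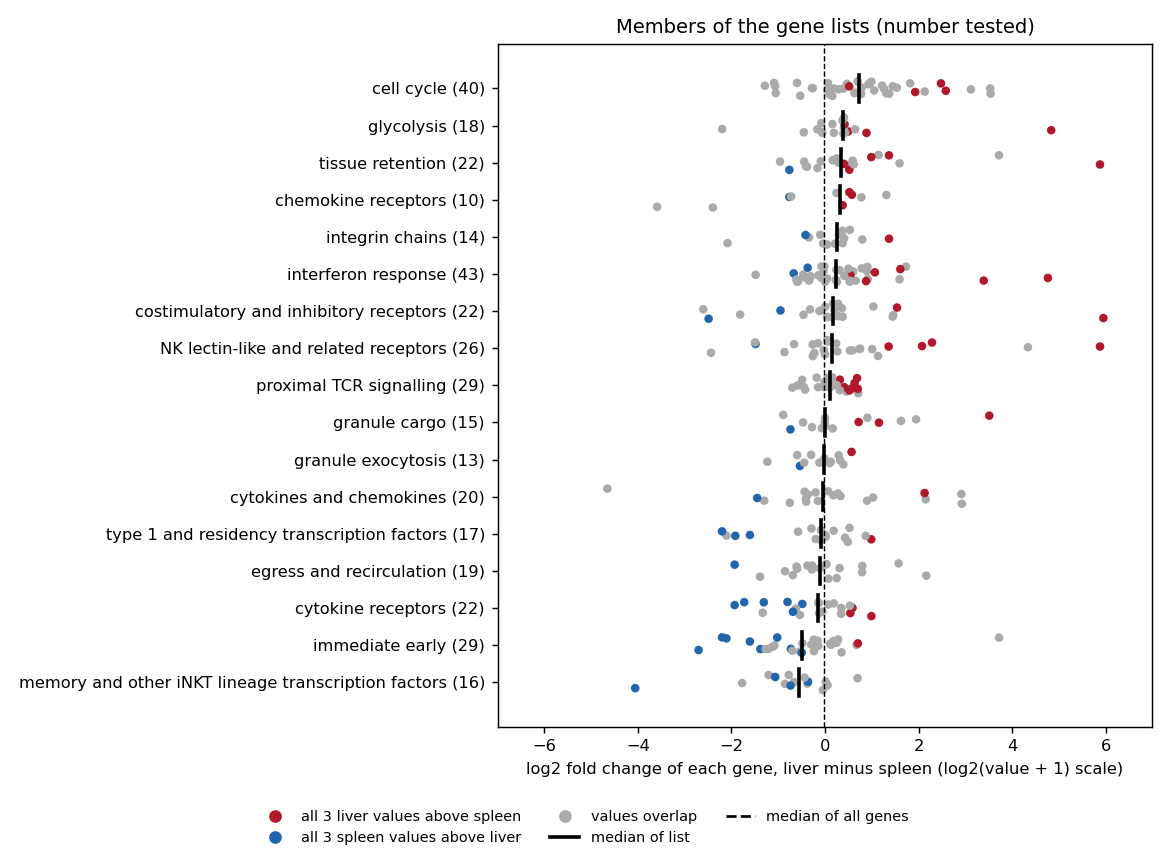
Log2 fold change (liver minus spleen, log2(value + 1) scale) of every tested member of 17 gene lists, ordered by the list median (black bar); the number tested is in brackets, red and blue points have no overlap between tissues, and the dashed line is the median of all genes. Cell cycle genes have the highest median, 0.74, and memory and other iNKT lineage transcription factors the lowest, -0.55.

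Of a panel of 24 genes of iNKT1 identity, residency and effector function, 22 were tested, 13 with positive fold changes, 8 wholly higher in liver (36.4%) and 2 in spleen (9.09%), and Gzmb and Fgl2 were the members that passed. Over all genes tested, 6.04% and 6.99% lay apart in this way and 0.0465% passed. The panel was chosen with earlier results of these data known. The calls differed in how firmly they held. Fgl2 passed in 26 and Gzmb in 25 of 27 alternative analyses, Malat1 in 22, Alb in 14 of the 25 that tested it and Ikzf2 in 12 of 27. Adjusted p-values ran from 2.37e-11 to 0.237 for Fgl2 and from 1.33e-12 to 0.242 for Gzmb. The fold changes of Gzmb over the fits without 1 library lay between 3.25 and 4.02 on the log2 scale, and those of Malat1 between -1.12 and -0.96.

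**Figure D5:**
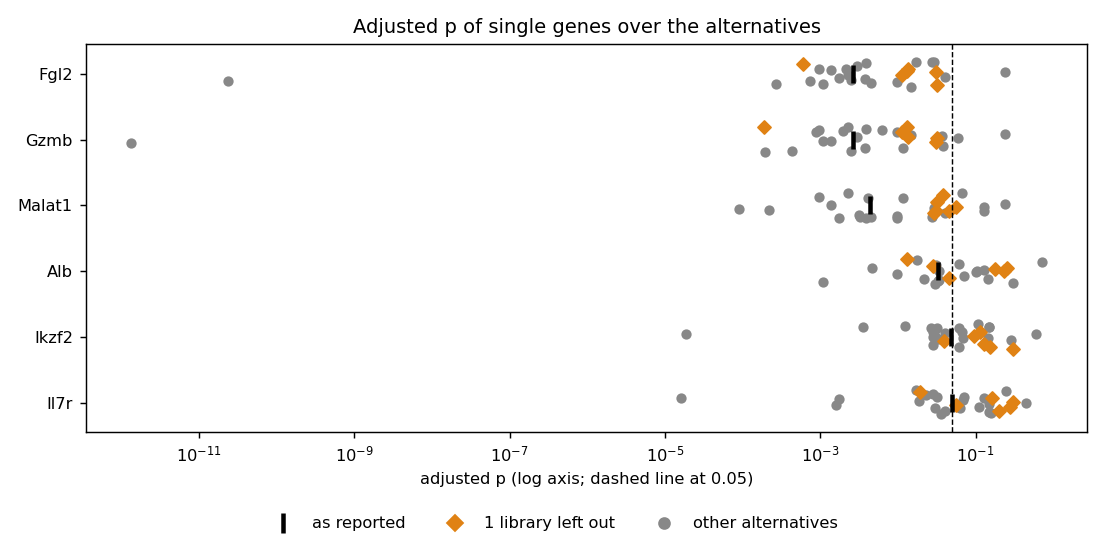
Adjusted p (log axis, dashed line at 0.05) of the 5 named genes past the threshold and of Il7r, the gene just outside it, as reported (black bar), with 1 library left out (orange diamonds) and in the other alternatives (grey points). Gzmb and Fgl2 lie left of the line in all fits without 1 library, and the points of Ikzf2 and Il7r fall on both sides.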

How the data were processed

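RNA-seq libraries of iNKT1 cells (3 liver, 3 spleen; the 3 thymus libraries stayed out of the fit) were made with an ultralow-input kit and sequenced on a NextSeq500, per the labels. Per the submitters' processing notes the tools were Trimmomatic 0.33, TopHat2 2.1.0, HTSeq 0.6.1 and edgeR, with build mm10. The values the authors deposited are normalised read counts, treated as a signal since they are not whole numbers; the scaling and strand setting are not given in the sources used here. Reads were recovered because low values in each library step up by a fixed amount per read: of values of 1 to 20 reads, 97.3% to 99.9% lay within 0.1 reads of a whole number in 5 of the 6 libraries and 64.6% in liver replicate 3.

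Main test: limma-trend (limma 3.58.1, R 4.3.3) on log2(value + 1), two-sided, with Benjamini-Hochberg adjustment over all 12890 genes, threshold 0.05, without a replicate block. edgeR 4.0.16 (quasi-likelihood) and DESeq2 1.42.0 on recovered reads, other pseudocounts, filters, scalings, array weights, a sex term and left-out libraries were alternatives. Those without both libraries numbered 1, and edgeR without liver replicate 3 or with a sex term, were chosen after seeing the data. Symbols matched 13359 of 14004 identifiers; positions come from GENCODE on GRCm38. The procedure was tested on simulated data.

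The comparison, the gene lists and the panel were chosen with earlier results of these data known. Named are all genes past the threshold; per direction, the 10 of smallest p that missed it, without overlap and with a mean of 100 or more on the higher side; a panel of 24 genes; and up to 4 members per list. Unnamed models, receptor segments and pseudogenes were counted and not named, and other genes were chosen after their values were seen. Some genes that the rule would name are not reported here. Lower bounds use a floor of 3 reads per library and cover counting error only, since no molecular identifiers are mentioned.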

Additional observations from a re-analysis of the deposited data

How the results depend on the processing

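Depth limits the low genes, above all in liver replicate 3. The total number of genes past the threshold (6; 3 higher, 3 lower) became 11 with a pseudocount of 8 (7 lower), 2 with no filter or with all 9 libraries (0 lower each), 16 with array weights (6 higher, 10 lower), 118 with DESeq2 on recovered reads (62 higher, 56 lower) and 10 with a sex term (6 lower). edgeR on recovered reads, with its own or DESeq2's size factors or with a sex term, gave 3 (1 lower); without both libraries numbered 1 it gave 2 (1 higher, 1 lower), and without liver replicate 3 it gave 0 (0 higher, 0 lower), with 697 genes at an unadjusted p under 0.05, where limma-trend gave 5. A mean of at least 10, equal library totals and equal totals without mitochondrial genes each gave 5 lower. Leaving out 1 library gave 2 to 7 genes, 2 to 3 higher and 0 to 4 lower; liver replicate 2 gave the 2, and spleen replicate 1 left 1 lower.

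The main fit was set without a replicate block, and the labels do not say whether replicate numbers are pairs. The correlation of deviations between same-numbered libraries was 0.0695, 0.0935 and 0.0364, and every library correlated best with its own number. Both libraries numbered 2 were the female ones. Correlations this low cannot decide whether the libraries were paired. With the replicate block 14 genes passed (10 lower), and in edgeR with the block 13 (5 higher, 8 lower); all 6 genes were among both.

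Of 699 values of 26 genes under the alternatives, 626 kept direction and side of the threshold, 45 lost and 15 gained the call, and 13 turned sign, none of a called gene; the cause was not tested. The log2 fold change of Tcf7 was -0.23, -0.22 and -0.22 with edgeR, edgeR with DESeq2 size factors and DESeq2, -0.16 without both libraries numbered 2, -0.13 in edgeR without liver replicate 3, -0.24 in edgeR with a sex term, and -0.52 to 0.60 with 1 library left out. That of Itgae was -0.10 with array weights, -0.55 without both libraries numbered 1, -0.52 for the same in edgeR, and -0.90 to 1.49 with 1 library left out. That of Cd69 was -0.023 with array weights. Of 170 list medians 157 moved by less than the spread between replicates, 13 moved by more and 14 changed sign.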

Other observations

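The 3 thymus libraries were not part of the comparison and are given here as values only. Gzmb was at 15045, 17618 and 14109 in thymus replicates 1, 2 and 3, above every liver and spleen library. Fgl2 was at 34104, 24835 and 24475, also above every liver library, so for both genes the spleen values were the lowest of the 3 tissues. Il7r was at 39747, 50118 and 27831 in thymus, above every spleen library, and the liver values were the lowest. Malat1 was at 355586, 473057 and 240827 and Ikzf2 at 4844, 2515 and 7335. Alb was at 0.0213, 268 and 84.0, so that thymus replicates 2 and 3 lay between the spleen and the liver libraries. No test was made of these values.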
